A study of Homo sapiens with 6 samples.

Results

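The genes described here encode GPX4 and 8 defences against ferroptosis that work beside it: AIFM2, DHODH, GCH1, VKORC1L1, MBOAT1, MBOAT2, TXNDC12 and STARD7. They were taken by gene symbol, and all 9 were found among the 28395 genes of the deposited table. No measured value entered this rule, but the list was chosen with earlier results of these data known. A375, an established human melanoma line labelled wild type, was cultured for 6 h with either of 2 oils at 0.01%. Olive oil (OLO) served as the control and ozonated olive oil (OZO) as the treatment. There were 3 libraries per group, and as 1 cell line was used the levels are those of that line alone. The study compared OZO with OLO; the values analysed here are the authors' mean over all 6 libraries, over both oils. No single library could be examined. No error can therefore be given, and nothing below says whether a gene differed between OZO and OLO.

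In ferroptosis, cells die when iron drives the oxidation of their membrane lipids. GPX4, a selenium-containing peroxidase, uses glutathione to reduce lipid hydroperoxides to alcohols. The other proteins act without GPX4. Several of them supply molecules that trap lipid radicals, and others change what membranes are made of. AIFM2 (also known as FSP1) reduces coenzyme Q at the plasma membrane, DHODH reduces it in mitochondria while making pyrimidines, and STARD7 carries it between membranes. GCH1 starts the synthesis of tetrahydrobiopterin, and VKORC1L1 reduces vitamin K. MBOAT1 and MBOAT2 place fatty acids into phospholipids, and TXNDC12 is a thioredoxin-like protein of the endoplasmic reticulum.

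As the low values of the table showed, the libraries held 18409903 scaled fragments in the geometric mean. Of all genes, 7012 had no read in any library and 13773 averaged 10 or more reads per library. To check the cell type, marker genes were examined. Of 8 melanocyte lineage markers 5 had at least 10 reads, and 1, SOX10, was above the median level of the genes with at least 10 reads. SOX10 had 919, MITF 499, S100B 51.0, MLANA 36.6 and TYRP1 11.0 reads per library. PMEL had 5.75 and DCT 4.74 reads, and TYR, the enzyme that starts pigment synthesis, had none. Of 4 markers of dedifferentiated melanoma all had at least 10 reads, with 4915 for AXL, and 3 were above the same median. EGFR, with 520 reads per library, was below it. The leukocyte markers ranged from 0 to 14.7 reads, the endothelial markers from 0.10 to 19.5 reads and the keratinocyte markers from 0 to 469 reads, the highest of them KRT10. The basal keratinocyte marker KRT14 had 77.5 reads, KRT5 had 1.56 and KRT1 none.

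To begin with the sequences from which these genes are read, promoters of 7 of the 9 genes were taken from RefSeq (GRCh38.p14). Each window runs from 250 bases before to 50 bases after a start site. 4 motifs were searched on both strands, and matches describe letters only, not bound factors. The core of the antioxidant response element, the site of the transcription factor NRF2, was searched as TGACNNNGC. It was present for 2 of the 7 genes, AIFM2 and VKORC1L1, and in 13.3% of all 35116 promoter windows. The CCAAT box, searched as CCAAT, was present for 3 genes, GPX4, STARD7 and DHODH, and in 34.6% of all windows. STARD7 held 3 matches. GPX4 held 3 in each of its overlapping windows starting at 1103744 and 1103807, and 0 in the window starting at 1104400. A gene was counted if any of its windows matched, while the shares are per window. The GC box GGGCGG was present for all 7 genes in at least 1 of their windows and in 45.0% of all windows, and TATAAA was present for none of the 7 genes and in 11.5% of all windows. The 10 windows of these genes, of which GPX4 has 3 and TXNDC12 has 2, held between 20 and 49 CpG dinucleotides, against a median of 14.

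The stretches with the antioxidant response element core, and those of the genes with 3 CCAAT boxes, are shown 5′ to 3′ on the strand of the gene. They were picked after the search, and that of DHODH, with 1 CCAAT box, is not shown. Capitals mark the core, here on the opposite strand, in the first pair and the CCAAT box on either strand in the second pair. In AIFM2 the core began 22 bases before the start site, and in VKORC1L1 it began 210 bases before it. Only bases before the annotated gene are shown, except in AIFM2, where a short piece is given because other annotated transcripts cover it. The third CCAAT match of GPX4 lies past the end of its stretch.
AIFM2 (hg38, chr10:70132828-70132857, minus strand): cagcacgagtGCTGAGTCAcgccccgcccg
VKORC1L1 (hg38, chr7:65872824-65873073, plus strand): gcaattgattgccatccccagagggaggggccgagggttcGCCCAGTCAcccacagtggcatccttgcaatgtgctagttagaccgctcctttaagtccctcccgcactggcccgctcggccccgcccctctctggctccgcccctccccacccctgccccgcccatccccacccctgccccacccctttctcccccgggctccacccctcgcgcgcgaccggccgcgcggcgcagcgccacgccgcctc
GPX4 (hg38, chr19:1103744-1103981, plus strand): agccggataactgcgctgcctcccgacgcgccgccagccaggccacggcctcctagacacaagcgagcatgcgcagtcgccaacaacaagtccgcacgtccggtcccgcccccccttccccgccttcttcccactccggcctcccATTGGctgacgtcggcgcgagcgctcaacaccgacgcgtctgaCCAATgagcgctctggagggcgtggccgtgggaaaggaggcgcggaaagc
STARD7 (hg38, chr2:96208828-96209077, minus strand): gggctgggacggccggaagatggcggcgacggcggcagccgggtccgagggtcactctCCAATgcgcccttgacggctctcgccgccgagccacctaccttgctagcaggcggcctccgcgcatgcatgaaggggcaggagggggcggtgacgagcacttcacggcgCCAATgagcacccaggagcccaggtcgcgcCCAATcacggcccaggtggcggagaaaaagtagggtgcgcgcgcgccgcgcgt

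All 9 genes were read in A375 cells. Levels of different genes were compared as mean CPM (voom's scaled counts, per 1000000 fragments) divided by the length of the canonical GENCODE 44 transcript in kilobases, since a longer transcript gives more fragments. On this scale 6 of the 9 genes were above the median of genes with at least 10 reads, 7.39 CPM per kilobase. They were TXNDC12, STARD7, GPX4, VKORC1L1, AIFM2 and GCH1. MBOAT2, MBOAT1 and DHODH were below it. The median, also used for the lists below, rests on 13313 of the 25497 genes with a length and splits only those evenly. A smaller share of all genes with a length lies above it. The count of 6 depended on the genes that form the median, as all 9 were above the median of genes with at least 1 read, 2.09 CPM per kilobase. The highest, TXNDC12, was 36.4 times the lowest, DHODH, per kilobase of transcript. The ratio of the same pair was 25.4 per kilobase of coding sequence and 11.0 by CPM. Together the 9 genes held 576 CPM, or 0.0576% of the scaled fragments as geometric means.

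**Figure D1:**
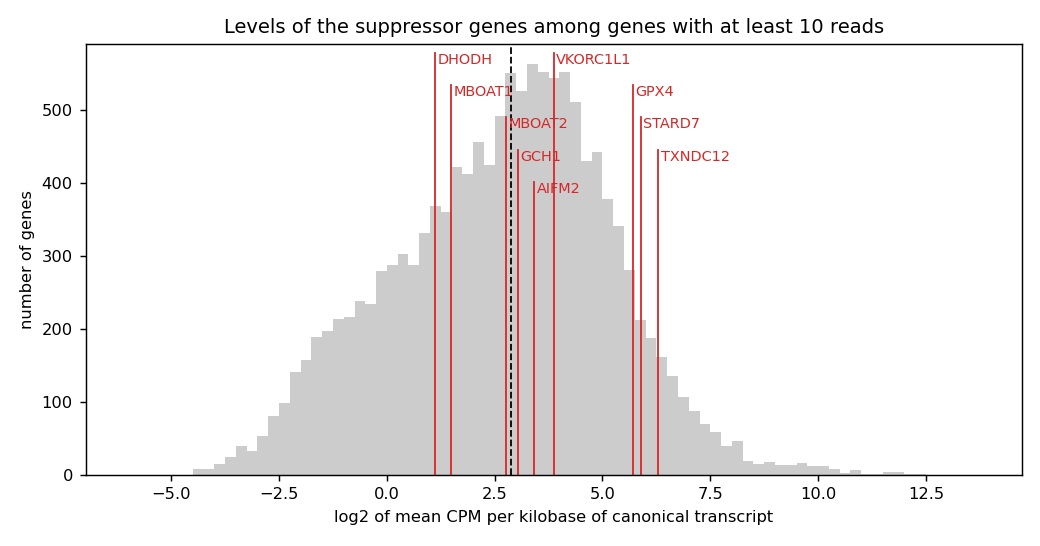
Histogram of genes with at least 10 reads by log2 of mean CPM per kilobase of canonical transcript (x axis); the y axis is the number of genes. Red lines mark the 9 suppressor genes and the dashed line the median of 7.39 CPM per kilobase, with TXNDC12, STARD7 and GPX4 in the right tail.

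GPX4, Ensembl ENSG00000167468, lies on chromosome 19 from 1103982 to 1106791 on the plus strand. Its canonical transcript is the shortest of the group, with 851 bases in 7 exons, of which 591 are coding. The mean level of GPX4 over the 6 libraries was 5.46 log2 CPM, or 44.1 CPM, from 812 reads per library. Per kilobase of transcript this was 51.8 CPM, 7.02 times the median and above 90.1% of genes with at least 10 reads. GPX4 was thus among the 3 highest of the 9 genes per kilobase.

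The enzymes around GPX4 were then examined. GPX1, the abundant cytosolic glutathione peroxidase, had 80.2 CPM per kilobase, above GPX4. GPX8 had 13.6 and GPX3 10.5 CPM per kilobase, GPX7 had 10.7 reads and GPX2 4.59 reads per library, and GPX5 and GPX6 had no read. Of the 9 genes listed for selenoprotein synthesis, 8 had at least 10 reads and 6 were above the median. SEPHS2, which makes the selenium donor for selenocysteine, was the highest of them at 50.6 CPM per kilobase. SELENOI, which is itself a selenoprotein and not part of the synthesis, had 36.1 CPM per kilobase. EEFSEC, the elongation factor that delivers selenocysteine, was at 4.71 CPM per kilobase. SCLY had 0.75 reads per library, and it lies within the readthrough gene UBE2F-SCLY, with which reads could be shared.

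Glutathione, the substrate of GPX4, is made from cystine that enters through SLC7A11 and SLC3A2. All 6 genes listed for its supply were above the median. SLC3A2 was highest at 163 CPM per kilobase, followed by GCLM at 60.0, and SLC7A11 was lowest at 28.4 CPM per kilobase. By this measure GCLM was above GPX4 in the mean over both oils, and GCLC, GSR and GSS, with 32.5 to 37.2 CPM per kilobase, were below it. The study reported GCLM mRNA as raised by OZO, and the order of these genes in either oil alone was not tested. By CPM all 6 genes were above GPX4, which had 44.1, and the lowest of them was GSS at 62.1.

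The enzymes that reduce coenzyme Q were examined next. AIFM2, ENSG00000042286, lies on chromosome 10 from 70098223 to 70132934 on the minus strand. Its level was 5.07 log2 CPM, from 616 reads per library, which gave 10.7 CPM per kilobase of its 3134-base transcript. DHODH, ENSG00000102967, lies on chromosome 16 from 72008588 to 72027664 on the plus strand. DHODH had the lowest level of the 9 genes, 3.33 log2 CPM, from 185 reads per library, or 2.16 CPM per kilobase. AIFM2 was 4.96 times DHODH per kilobase of transcript and 3.52 times per kilobase of coding sequence.

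STARD7, ENSG00000084090, lies on chromosome 2 from 96184859 to 96208827 on the minus strand. It had the most reads of the group, 3688 per library, with a level of 7.65 log2 CPM or 200.4 CPM. Per kilobase of its 3377-base transcript STARD7 had 59.3 CPM, which is 1.14 times GPX4. It was 2.42 times GPX4 per kilobase of coding sequence and 4.54 times by CPM. The gene shares 412 bases with the antisense gene STARD7-AS1, which had 32.0 reads per library.

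Of the 11 genes listed for coenzyme Q synthesis all had at least 10 reads, and 8 were above the median. They ranged from 3.32 CPM per kilobase for COQ8B to 20.1 for COQ5. NQO1, another quinone reductase, was far higher at 269 CPM per kilobase. NMT1, one of the enzymes that add the myristoyl group by which AIFM2 is held at membranes, had 34.6 CPM per kilobase, and NMT2 had 4.97. Of the relatives of AIFM2, AIFM1 had 40.7 CPM per kilobase and AIFM3 2.47 reads per library. PARL, the mitochondrial protease that processes STARD7, had 31.1 CPM per kilobase and was the highest of the 8 genes listed with STARD7, of which 5 were above the median and STARD5 was lowest at 0.23. Of the 5 genes listed for pyrimidine synthesis beside DHODH, 4 were above the median, the highest CMPK1 at 117.5 CPM per kilobase, and CTPS2 was below it at 5.59. CAD, which makes the substrate of DHODH, had 16.4 CPM per kilobase, and UMPS, which acts after it, had 11.5. All 5 were above DHODH.

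GCH1, ENSG00000131979, lies on chromosome 14 from 54842008 to 54902826 on the minus strand. It had 442 reads per library and a level of 4.59 log2 CPM, or 8.24 CPM per kilobase, 1.12 times the median. Of the 6 genes listed around it in the tetrahydrobiopterin pathway, 4 were above the median. PTS, the next enzyme of the synthesis, had 44.5 CPM per kilobase and SPR, the last, had 11.4. QDPR, which recycles the cofactor, had 29.5 CPM per kilobase. GCHFR, which encodes the feedback regulator of GCH1, was the lowest at 3.25. GCH1 was lower per kilobase of transcript than the synthesis enzymes PTS and SPR. The order against SPR depended on length. By CPM GCH1, at 24.0, was below PTS at 38.8 and above SPR at 16.4.

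VKORC1L1, ENSG00000196715, lies on chromosome 7 from 65873074 to 65959563 on the plus strand. Its level was 6.47 log2 CPM from 1635 reads per library. The transcript is 6087 bases long, of which only 528 are coding, so VKORC1L1 had 14.6 CPM per kilobase of transcript and 168 CPM per kilobase of coding sequence. Its relative VKORC1, the classical enzyme of the vitamin K cycle, had 27.5 CPM per kilobase of transcript. By CPM the order was the reverse, with 88.9 for VKORC1L1 and 23.1 for VKORC1. GGCX, the vitamin K-dependent carboxylase, had 6.88 CPM per kilobase. Of these 2 genes listed beside VKORC1L1, 1 was above the median.

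The related acyltransferases MBOAT1 and MBOAT2 were both below the median of genes with at least 10 reads and above that of genes with at least 1 read. MBOAT2, ENSG00000143797, lies on chromosome 2 from 8852690 to 9003709 on the minus strand and had a level of 5.69 log2 CPM from 947 reads per library. MBOAT1, ENSG00000172197, lies on chromosome 6 from 20099684 to 20212469 on the minus strand and had 3.60 log2 CPM from 222 reads per library. Per kilobase MBOAT2 had 6.75 CPM and MBOAT1 2.80, so MBOAT2 was 2.41 times MBOAT1. The ratio was 4.05 per kilobase of coding sequence and 4.25 by CPM. Of 9 other membrane-bound O-acyltransferases, only LPCAT3 at 37.2 and SOAT1 at 27.5 CPM per kilobase were above the median. MBOAT7 had 15.3 reads, SOAT2 1.26 and HHATL 0.10 reads per library.

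TXNDC12, ENSG00000117862, lies on chromosome 1 from 52020131 to 52055191 on the minus strand. It had 6.80 log2 CPM from 2046 reads per library. With a transcript of 1416 bases this gave 78.5 CPM per kilobase, the highest of the 9 genes, 10.6 times the median and 1.51 times GPX4. It was 2.89 times GPX4 per kilobase of coding sequence and 2.52 times by CPM. The gene KTI12, on the same strand, overlaps TXNDC12 by 1708 bases, so reads could be shared between them. KTI12 was listed with no read, which cannot show that none of its reads were counted for TXNDC12. The antisense gene TXNDC12-AS1 had 1.46 reads per library. Of 14 other genes listed for thioredoxin-like proteins of the endoplasmic reticulum, 10 were above the median. P4HB at 207, PDIA3 at 141, PDIA6 at 111, TMX2 at 103.5 and PDIA4 at 82.8 CPM per kilobase were above TXNDC12, and AGR2 and AGR3 had under 1 read per library. TXNDC5 had 17.3 reads per library, and it lies within the readthrough gene BLOC1S5-TXNDC5.

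**Figure D2:**
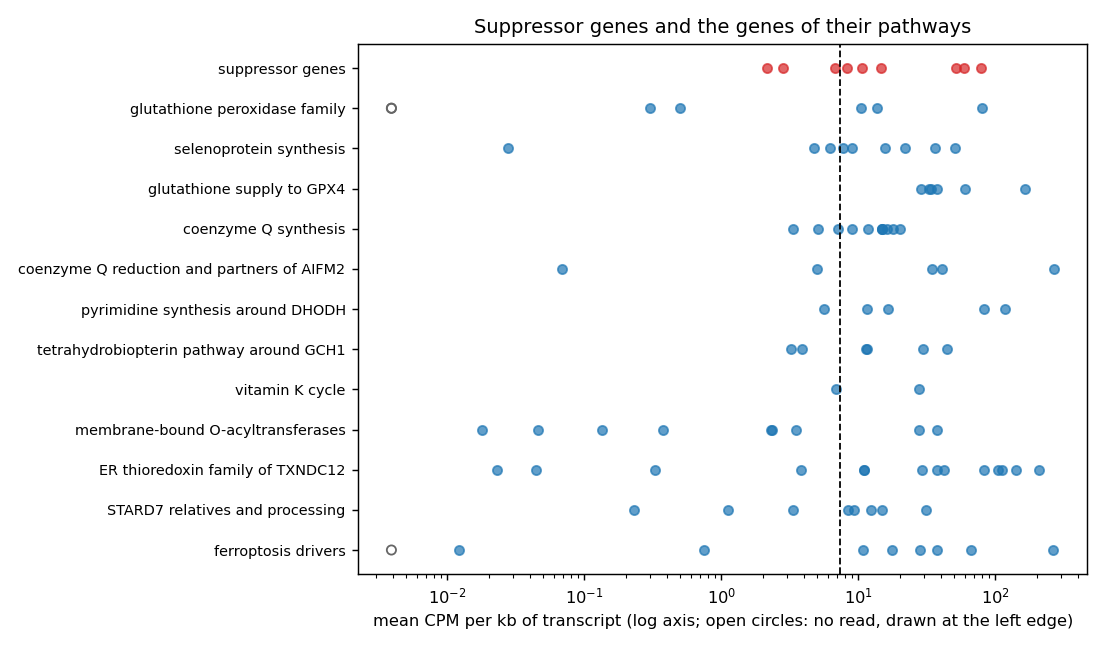
Mean CPM per kilobase of canonical transcript (x axis, log scale) of the suppressor genes, in red, and of the genes of each pathway list, in blue, with 1 point per gene; open circles are genes with no read. The 6 genes of glutathione supply all lie right of the dashed median of 7.39, and the membrane-bound O-acyltransferases reach from 0.018 to 37.2.

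The order of the 9 genes was then compared on 3 scales. Per kilobase of transcript it ran from TXNDC12 through STARD7, GPX4, VKORC1L1, AIFM2, GCH1, MBOAT2 and MBOAT1 to DHODH. The largest step between neighbours was from GPX4 to VKORC1L1, 3.55 times, followed by that from MBOAT2 to MBOAT1. The other neighbours differed by between 1.14 and 1.37 times, and without values per library it was not tested whether any neighbours differ beyond the spread between libraries. Per kilobase of coding sequence, VKORC1L1 passed GPX4 (168 against 74.6 CPM), MBOAT2 and GCH1 passed AIFM2 (33.0 and 32.1 against 29.9 CPM) and DHODH passed MBOAT1 (8.49 against 8.15 CPM). MBOAT2 also passed GCH1 on that scale. TXNDC12 and STARD7 stayed the first pair on all 3 scales, and MBOAT1 and DHODH the last pair.

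**Figure D3:**
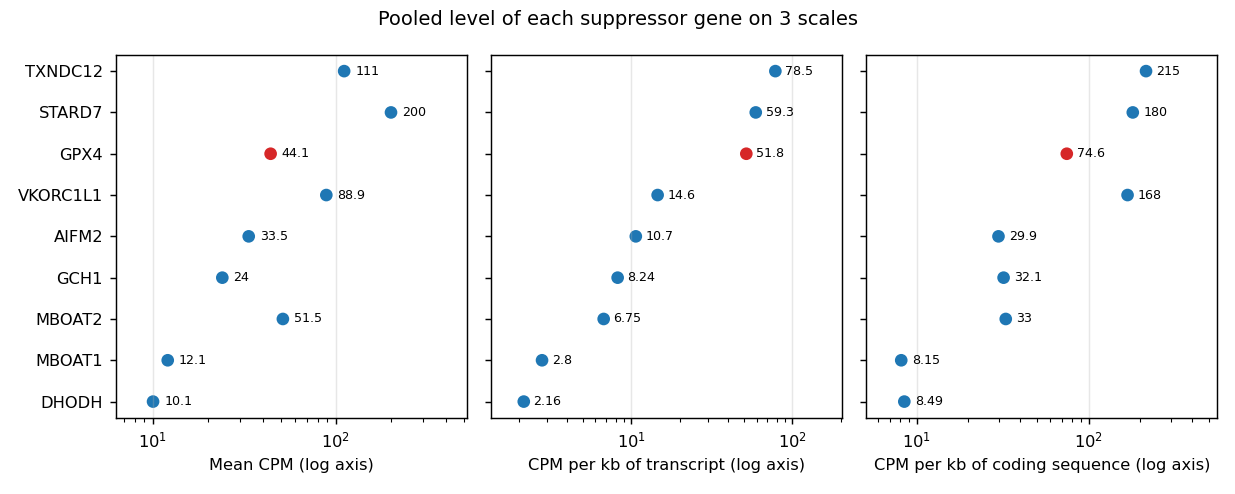
Mean CPM, CPM per kilobase of transcript and CPM per kilobase of coding sequence of each gene (x axes, log scale), with genes ordered by the middle panel and GPX4 in red. GPX4 has 44.1, 51.8 and 74.6 on the 3 scales, and VKORC1L1 moves most, from 14.6 to 168, with the length it is divided by.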

How the data were processed

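RNA-seq libraries of A375 cells (3 OLO and 3 OZO, as the labels group them) were aligned by the authors to hg38 with HISAT2 2.1.0, counted per gene with featureCounts 2.1.1 and compared with limma-voom 3.58.1. Whether low counts were filtered, how libraries were scaled and whether strand was used are not given in the sources used here. The 7012 genes with no read in any library were still listed, so no filter had removed them. The deposited table also holds the authors' log2 fold changes, moderated t, p-values, adjusted p-values and log odds; these were not used. The column used is the authors' mean log2 CPM of the 6 libraries; voom adds 0.5 to each count before taking logarithms.

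Reads per library were derived from the lowest value, taken as no read; all 10694 low genes examined fell on odd whole products within 1e-06, as whole reads plus 0.5 require. These reads are a geometric mean, and their precision could not be estimated. The calculation was checked on simulated data. Lengths came from canonical transcripts of GENCODE 44 (hg38), matched by Ensembl identifier for 25497 genes and 96.7% of genes with at least 10 reads. No test was run. Python 3.11.15, pandas 2.3.3 and matplotlib 3.10.9 were used.

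The members and lists were chosen with earlier results of these data known. All members were named, and of each of 12 pathway lists the 3 highest and 2 lowest genes per kilobase could be, with relatives of the members. Some genes of these lists are not reported here. Other genes, and the sequences shown, were chosen after their values were seen.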

Additional observations from a re-analysis of the deposited data

How the results depend on the processing

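No paired analysis was possible because the values used are means over all libraries, so the comparison of OZO with OLO, its replicate block and leaving out each replicate were not run. The median percentile of the 9 genes, 78.5 among all genes with a length, was 72.2 among genes with at least 1 read, 58.7 among genes with at least 10 reads and 82.9 by CPM not divided by length, the last chosen after the data were seen. Among genes with a symbol the percentiles of all 9 genes were identical to those among all genes with a length, so that setting was no separate check. GPX4, at place 3 of 9 per kilobase, was at place 5 by CPM and at place 4 per kilobase of coding sequence. In all, 7 genes changed place by CPM and 6 by coding length. The pathway lists held 58 of 91 places above the median of genes with at least 10 reads, 73 above that of genes with at least 1 read and 76 above that of all genes. Of the 9 genes themselves, 6 were above the first of these medians and 9 above each of the others. A median splits its own genes evenly, but the list places also include genes with under 10 reads. The first median rests on 13313 of the 25497 genes with a length. A smaller share of all genes with a length than of its own genes was therefore above it. Adding 1 in place of 0.5 doubles every implied read count by construction.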

Other observations

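The 9 genes listed here as drivers of ferroptosis covered a wider range of levels than the 9 suppressor genes. That range depends on which genes were listed and describes no class of genes. Of these 9 drivers 6 were above the median of 7.39 CPM per kilobase. TFRC, the receptor for iron-loaded transferrin, had 264 CPM per kilobase and NCOA4, which delivers ferritin for breakdown, had 65.8. LPCAT3 and ACSL4, which bring polyunsaturated fatty acids into phospholipids, had 37.2 and 17.7 CPM per kilobase. The lipoxygenase genes on this list were low: ALOX12 had 32.5 reads per library, ALOX15 had 0.10 and ALOX5 had no read in any library. Other lipoxygenase genes were not examined.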
